A study of Mus musculus with 10 samples.

Results

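Aristolochic acid, a plant toxin that damages the proximal tubule, is turned in the kidney into a reactive form that binds to purines and leaves bulky adducts on DNA. The 48 genes described here act on such adducts or on the lesions that adducts become during replication. They were taken from a list by pathway and found by Ensembl identifier among the 21792 genes measured in every mouse. There were 17 genes of nucleotide excision repair (NER), 6 of translesion synthesis, 10 of the Fanconi anemia pathway, 13 of homologous recombination (HR), and *Msh6* and *Parp1*, which belong to mismatch repair and to strand break signalling. All 48 were measured. All 48 passed the filter on low values, a mean over all mice of at least 0.1 FPKM (fragment counts scaled to transcript length and to depth).

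NER finds an adduct either anywhere in the genome or where it stops RNA polymerase, opens the helix around it, cuts the strand on both sides and fills the gap. It needs no replication and works in resting cells. Translesion polymerases copy across an adduct that is still there when a fork arrives. The Fanconi proteins act on forks stalled at lesions, above all at cross-links between the strands, and HR restores broken forks from the sister chromatid, so both are used mainly by cells that replicate their DNA.

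Renal cortex was profiled by RNA sequencing in 10 wild-type male C57BL/6 mice, aged 8 weeks in the study's methods. The 6 mice with aristolochic acid nephropathy (AAN) were injected intraperitoneally with aristolochic acid in PBS, 1 time at 5 mg/kg. The 4 sham mice were given PBS alone, and both groups were killed at day 28, so no earlier response was sampled. Each mouse is 1 library, and mice are numbered within their group in the order of deposition.

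The libraries held 15.8 to 17.5 megafragments in the sham mice and 13.3 to 16.5 megafragments in the AAN mice, as recovered from the FPKM steps. The 8 proximal tubule markers, the defining genes of renal cortex, summed to 2712 to 4811 FPKM in sham mice and 668 to 2399 FPKM in AAN mice. Genes of the mitochondrial genome made up 39.5% to 61.4% of all FPKM in the sham group and 21.4% to 55.0% in the AAN group, and the median difference of all 17129 genes tested was 0.75 on the log2(FPKM + 0.1) scale. After rescaling each mouse by the median of its ratios over genes the median was 0.06, and after quantile normalization -0.10. Differences are therefore given as deposited, beside that median of 0.75, and after rescaling. Long genes were set against short genes in each mouse, each gene taken relative to the mean of that mouse's group. Sham mouse 1 and AAN mouse 2 stood apart, with long genes higher by 0.47 and 0.45 on the log2 scale, against -0.20 to 0.01 in the other 8 mice. Whole cortex was sequenced, so more cells of a type and more RNA per cell cannot be told apart.

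Of the 48 repair genes, 21 were higher in AAN mice and 0 were lower, by limma on log2(FPKM + 0.1) at an adjusted p of at most 0.05 and at least 2-fold. Of all genes tested, 35.8% were called higher and 3.43% lower by the same limits. Without the fold limit, 37 members passed the p limit upward and 0 downward, against 55.4% and 6% of all genes. After rescaling by the median of ratios 7 members were called higher and 0 lower, against 19% and 10.5% of all genes. Quantile normalization called 4 higher and 1 lower, against 14.9% and 11.6%. In 31 members every AAN mouse lay above every sham mouse, which was so for 40.3% of all genes, and in 0 members every AAN mouse lay below every sham mouse, against 3.25%. The median difference of the members was 0.93, above the 0.75 of all genes.

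The calls were spread unevenly over the pathways. In NER, 2 of 17 genes were called higher, in translesion synthesis 4 of 6, in the Fanconi pathway 6 of 10 and in HR 9 of 13. Of all genes tested, 35.8% were called higher. *Msh6* and *Parp1* were not called. The 7 members called higher after rescaling were *Rad18* of translesion synthesis, *Fancb*, *Fancd2* and *Fanci* of the Fanconi pathway, and *Rad51b*, *Rad54l* and *Blm* of HR. No NER gene was among them. Of the 7, all but *Fancb* had a sham mean below the filter limit of 0.1 FPKM, so their AAN values carried them past it. These means ran from 0 (*Rad51b*) to 0.059 FPKM (*Blm*). Such a gene would not have been tested had it stayed at its sham level. *Brca2* and *Palb2* had sham means below that limit too and were not called after rescaling. In NER the lowest sham mean was 0.407 FPKM (*Ercc8*). The difference between pathways in the numbers of calls was not tested.

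**Figure D1:**
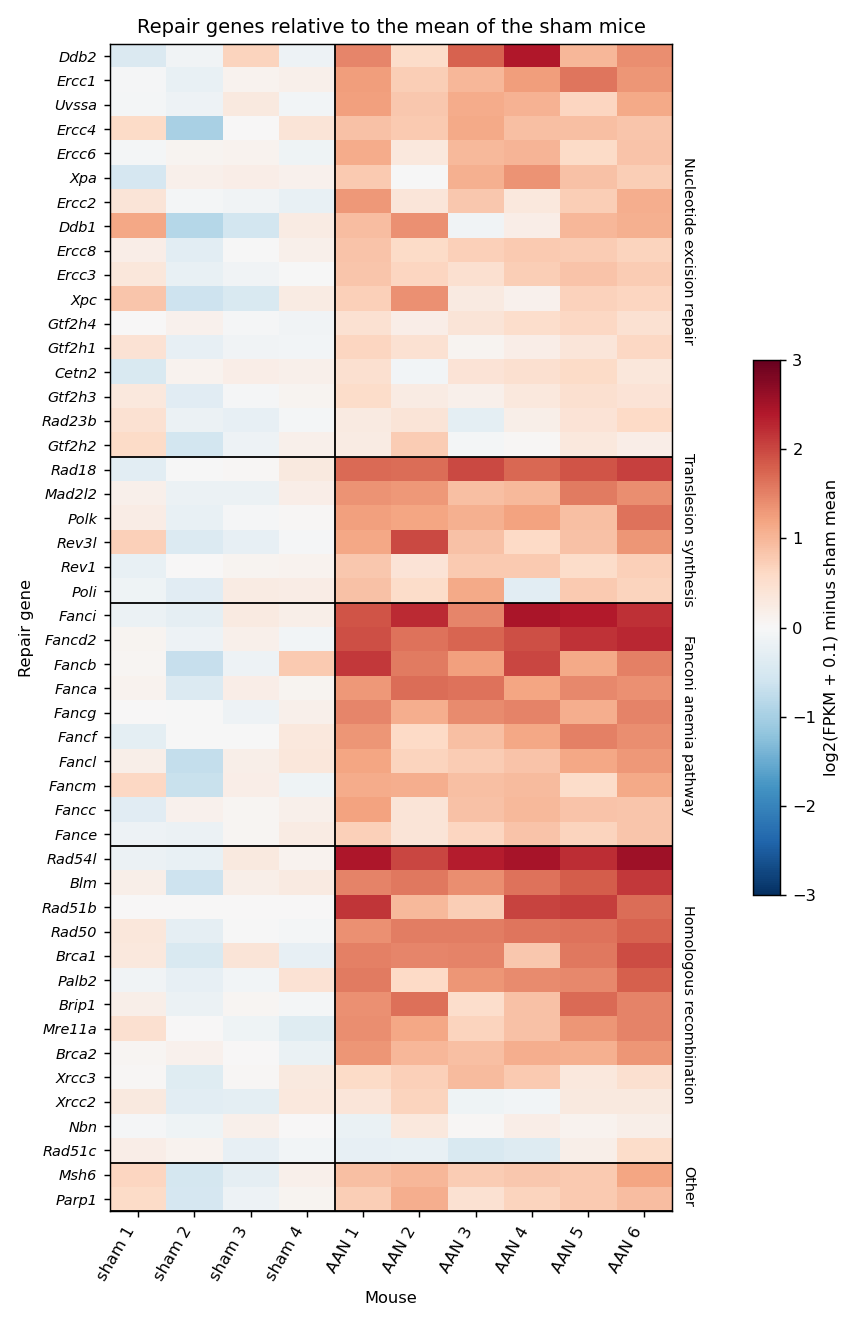
Level of each of the 48 repair genes (rows, by pathway and then by difference) in each of the 10 mice (columns), as log2(FPKM + 0.1) minus the mean of the 4 sham mice. Most Fanconi, translesion and HR rows are red across the 6 AAN mice, the NER rows are paler, and *Nbn* and *Rad51c* at the foot of HR are near white.

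**Figure D2:**
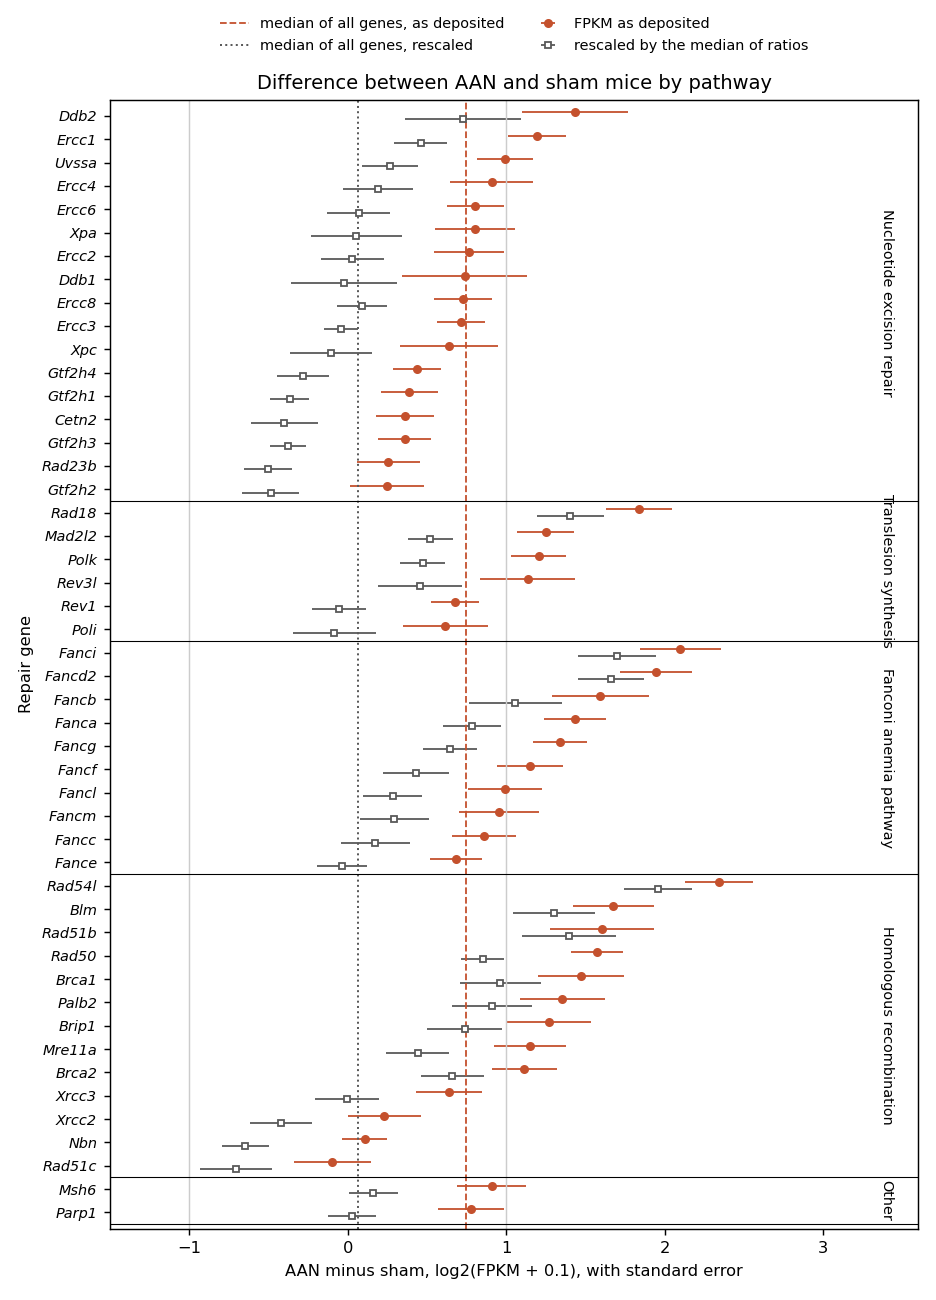
Difference between the 6 AAN and 4 sham mice for each repair gene on the log2(FPKM + 0.1) scale with its standard error, as deposited (filled circles) and after rescaling by the median of ratios (open squares). Dashed and dotted lines mark the medians of all 17129 genes, 0.75 and 0.06, and grey lines mark 2-fold. The point for *Rad51b*, listed at 0 in every sham mouse, depends on the pseudocount.

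Among the NER genes the median difference was 0.73, close to that of all genes, -0.02 after rescaling and -0.11 after quantile normalization. All 17 differences were above 0 as deposited, as were those of 14095 of all 17129 genes. Of the 17, 10 had an adjusted p of at most 0.05, against 55.4% of all genes passing upward. The median ratio of mean FPKM, which uses no pseudocount, was 1.64 in NER and 1.72 over all genes. In 7 of the 17 genes the AAN mice lay wholly above the sham mice, which was so for 40.3% of all genes.

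The factors that recognize adducts anywhere in the genome gave 1 call among 5 genes, against 35.8% of all genes called higher. *Ddb2*, the subunit of the damage-binding complex that contacts the lesion, had the largest difference in NER. It was 0.592, 0.760, 1.38 and 0.741 FPKM in the 4 sham mice, and ran from 1.27 to 4.78 FPKM with a median of 2.41 in the 6 AAN mice. AAN mouse 2 was below sham mouse 3, and the other 5 AAN mice were above every sham mouse. The log2 difference was 1.43 (SE 0.34, adjusted p = 0.00306), and 0.73 after rescaling, where the call was lost. *Ddb2* lies on chr2:91211572-91236982 (GRCm38, minus strand), and 23.8% of its exonic length is shared with *Acp2* on the other strand, which was also higher (1.32). Strand use was not stated, so reads of the pair cannot be told apart.

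*Rad23b*, which stabilizes the recognition factor XPC, was 19.8, 12.7, 12 and 13.8 FPKM in sham mice and 11.7 to 21.7 FPKM (median 17.9) in AAN mice. The groups overlapped, with a log2 difference of 0.26 (SE 0.20, adjusted p = 0.279) as deposited and -0.50 after rescaling. The difference was 0.64 for *Xpc* itself, 0.74 for *Ddb1*, the partner of DDB2, and 0.36 for *Cetn2*, the third member of the XPC complex, and none of these was called. *Xpc* and *Ddb1* were highest and *Cetn2* lowest within their groups in sham mouse 1 and AAN mouse 2, the pair of libraries that stood apart by gene length. Without sham mouse 1 *Ddb1* was called, at 1.12.

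None of the 3 genes of transcription-coupled recognition was called, against 35.8% of all genes called higher. In all 3 the groups did not overlap. Every AAN mouse lay above every sham mouse in 40.3% of all genes. *Uvssa*, which holds the stalled polymerase complex together, was 1.25, 1.17, 1.64 and 1.24 FPKM in sham mice and 2.10 to 3.20 FPKM (median 2.89) in AAN mice. Its log2 difference of 0.99 (SE 0.17, adjusted p = 0.000452) fell just short of 2-fold, and was 0.27 after rescaling and -0.04 after quantile normalization. The differences were 0.81 for *Ercc6* (CSB), the ATPase that binds the stalled polymerase, and 0.73 for *Ercc8* (CSA), the ubiquitin ligase subunit that it recruits.

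The 7 genes that open the helix and verify the lesion gave 0 calls, against 35.8% of all genes called higher. Their median difference was 0.44. *Gtf2h2*, a core subunit of TFIIH, was 3.49, 1.55, 2.07 and 2.58 FPKM in sham mice and 2.21 to 3.99 FPKM (median 2.74) in AAN mice. The groups overlapped, and the log2 difference was 0.25 (SE 0.23, adjusted p = 0.367), the smallest in NER, and -0.49 after rescaling. The core subunits *Gtf2h1*, *Gtf2h3* and *Gtf2h4* lay at 0.39, 0.36 and 0.44, and at -0.37, -0.38 and -0.28 after rescaling. The TFIIH helicases *Ercc2* (XPD) and *Ercc3* (XPB) lay at 0.77 and 0.72, and *Xpa*, which verifies the lesion and positions the nucleases, at 0.80. *Xpa* was 2.37 FPKM in sham mouse 1 and 3.35 FPKM in AAN mouse 2, the lowest value of each group.

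Against 35.8% of all genes called higher, 1 was called of the 2 genes of the nuclease that cuts on the 5′ side. *Ercc1*, its DNA-binding subunit, was 1.61, 1.39, 1.79 and 1.84 FPKM in sham mice and 2.82 to 5.20 FPKM (median 4.09) in AAN mice. The groups did not overlap, and the log2 difference was 1.19 (SE 0.19, adjusted p = 0.000183), falling to 0.46 and below 2-fold after rescaling. *Ercc4* (XPF), its catalytic partner, was 2.03, 0.635, 1.36 and 1.78 FPKM in sham mice and 2.39 to 3.08 FPKM in AAN mice, with a log2 difference of 0.91 that was not called. ERCC1 and XPF also act in cross-link repair, so the pair is not particular to NER.

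Translesion synthesis gave 4 calls among 6 genes, against 35.8% of all genes called higher. The median log2 difference of the 6 was 1.17, 0.47 after rescaling and 0.08 after quantile normalization, and their median ratio of means was 2.40. *Rad18*, the ubiquitin ligase that marks PCNA and so brings these polymerases to a stalled fork, had the largest difference on the log2(FPKM + 0.1) scale, but not with a pseudocount of 1, where it lay at 0.46 and *Mad2l2* at 0.89. It was 0.0240, 0.0531, 0.0575 and 0.0894 FPKM in sham mice, at most 2.44 to 8.50 fragments, and 0.396 to 0.535 FPKM (median 0.441) in AAN mice. The groups were far apart, with a log2 difference of 1.84 (SE 0.21, adjusted p = 1.62e-05) and 1.40 after rescaling, where it was still called. *Rad18* lies on chr6:112619850-112696686 (GRCm38, minus strand).

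*Mad2l2* (REV7), the accessory subunit of polymerase zeta, was 1.54, 1.2, 1.21 and 1.60 FPKM in sham mice and 2.66 to 4.27 FPKM (median 3.61) in AAN mice. The groups did not overlap, and the log2 difference was 1.25 (SE 0.18, adjusted p = 0.000104), falling to 0.52 and below 2-fold after rescaling. *Rev3l*, the catalytic subunit, was called at 1.14 (SE 0.30, adjusted p = 0.00622), but not without sham mouse 2 (0.998) or AAN mouse 2 (0.97), and its highest value in each group was in the pair of mice that stood apart, 1.04 FPKM in sham mouse 1 and 2.66 FPKM in AAN mouse 2.

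*Polk*, a polymerase that bypasses bulky adducts on guanine, was 1.79, 1.29, 1.47 and 1.56 FPKM in sham mice and 2.91 to 4.92 FPKM (median 3.63) in AAN mice. Every AAN mouse was above every sham mouse, and the log2 difference was 1.2 (SE 0.17, adjusted p = 0.000107), and 0.47 and below 2-fold after rescaling. *Rev1*, the scaffold on which translesion polymerases exchange, was 1.51, 1.78, 1.88 and 1.92 FPKM in sham mice and 2.37 to 3.17 FPKM (median 3.04) in AAN mice, a log2 difference of 0.68 (SE 0.15, adjusted p = 0.00253) that was below 2-fold and -0.06 after rescaling. Of its exonic length 26.6% is shared with *Eif5b* on the other strand. *Poli*, another polymerase of the same family, was 0.832, 0.711, 1.11 and 1.08 FPKM in sham mice and 0.725 to 2.14 FPKM (median 1.59) in AAN mice. AAN mouse 4 lay among the sham mice, and the log2 difference of 0.62 (SE 0.27, adjusted p = 0.0633) did not pass and was -0.09 after rescaling.

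In the Fanconi pathway all 10 genes had an adjusted p of at most 0.05, 6 passed 2-fold, and in 9 the groups did not overlap. Of all genes, 55.4% passed the p limit upward and 35.8% also passed 2-fold. In 40.3% of all genes every AAN mouse lay above every sham mouse. The median log2 difference of the 10 Fanconi genes was 1.24, 0.54 after rescaling and 0.11 after quantile normalization. The 2 subunits of the clamp that is ubiquitinated at the lesion, FANCI and FANCD2, stood above the 8 genes of the ubiquitin ligase core and its anchor, which had a median of 1.07. With a pseudocount of 1 they did not stand above, at 0.54 for *Fanci* and 0.40 for *Fancd2* against 0.66 for *Fanca*.

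*Fanci* was 0.0248, 0.0182, 0.0702 and 0.0614 FPKM in sham mice, at most 1.66 to 6.64 fragments, and 0.289 to 0.669 FPKM (median 0.560) in AAN mice. Its log2 difference was 2.10 (SE 0.25, adjusted p = 2.57e-05), and 1.70 after rescaling, where it was called. It lies on chr7:79391929-79450264 (GRCm38, plus strand), and shares 16.0% of its exonic length with *Polg* on the other strand, which was 1.22 to 2.21 FPKM in sham mice.

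*Fancd2* was 0.0178, 0, 0.0253 and 0.00631 FPKM in sham mice, at most 3.28 fragments in any of them, and 0.245 to 0.440 FPKM (median 0.327) in AAN mice. The groups were again far apart, with a log2 difference of 1.94 (SE 0.22, adjusted p = 1.74e-05) and 1.66 after rescaling, where it was called. So few sham fragments leave the ratio itself poorly known. *Fancd2* lies on chr6:113531682-113597017 (GRCm38, plus strand) and overlaps *Fancd2os* on the other strand, which fell by 2.31.

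The core genes differed among themselves. *Fancb*, an X-linked subunit of the ligase's catalytic module, was 0.173, 0.0636, 0.138 and 0.352 FPKM in sham mice and 0.479 to 1.04 FPKM (median 0.661) in AAN mice, a log2 difference of 1.59 (SE 0.31, adjusted p = 0.000874) and 1.06 after rescaling, where it was called. *Fanca* and *Fancg*, which bind each other in the core, were called at 1.43 and 1.34, and *Fancf*, an adaptor of the core, at 1.15, and all 3 fell below 2-fold after rescaling. *Fancl*, the ligase's catalytic subunit, and *Fancm*, the anchor that binds the fork, had differences of 0.99 and 0.96, just short of the limit.

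On the log2(FPKM + 0.1) scale the smallest differences in the pathway were those of *Fance*, which links the core to FANCD2, and *Fancc*, its partner. *Fance* was 1.08, 1.06, 1.25 and 1.45 FPKM in sham mice and 1.60 to 2.24 FPKM (median 2.01) in AAN mice, a log2 difference of 0.68 (SE 0.17, adjusted p = 0.00379) and -0.04 after rescaling. *Fancc* was 0.442, 0.658, 0.624 and 0.669 FPKM in sham mice and 0.810 to 1.49 FPKM (median 1.17) in AAN mice, a log2 difference of 0.86 (SE 0.20, adjusted p = 0.00313) and 0.18 after rescaling. Both sets of AAN mice lay above all sham mice, and neither gene passed 2-fold.

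HR had a median difference of 1.27 as deposited and 0.74 after rescaling, the highest of the 4 pathways, but of 0.04 after quantile normalization, below the Fanconi pathway and translesion synthesis. Its spread was the widest as deposited, from -0.10 to 2.34. Its 4 BRCA mediators, which prepare resected DNA for strand exchange, were all called, against 35.8% of all genes called higher. The differences were 1.47 for *Brca1*, 1.35 for *Palb2*, the bridge between BRCA1 and BRCA2, 1.27 for *Brip1*, a helicase that binds BRCA1, and 1.11 for *Brca2*. Their summed level was 0.322 to 0.499 FPKM in sham mice and 1.29 to 2.21 FPKM in AAN mice. After rescaling all 4 kept an adjusted p of at most 0.05, as did 26% of all genes upward, and none passed 2-fold. After quantile normalization *Brca2* lay at -0.02. *Brca2* and *Palb2* had sham means of 0.081 and 0.082 FPKM, below the filter limit, so their AAN values carried them past it.

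*Rad54l*, a motor protein of strand exchange, had the largest difference of the 48 genes on the log2(FPKM + 0.1) scale. With a pseudocount of 0.01 it lay at 3.87, below *Rad51b* (4.34) and *Fancd2* (4.08), and with 1 at 0.61, where *Rad50* was highest at 1.09. It was 0.0176, 0.0129, 0.0623 and 0.0436 FPKM in sham mice, at most 1.58 to 7.86 fragments, and 0.431 to 0.679 FPKM (median 0.596) in AAN mice. The lowest AAN mouse was well above the highest sham mouse, with a log2 difference of 2.34 (SE 0.21, adjusted p = 2.82e-06) and 1.96 after rescaling, where it was called. *Rad54l* lies on chr4:116094264-116123690 (GRCm38, minus strand), with 15.4% of its exonic length shared with *Lrrc41* on the other strand. *Lrrc41* was 7.36 to 10.3 FPKM in the same sham mice.

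*Blm*, the helicase that takes apart recombination intermediates, was 0.0753, 0, 0.0747 and 0.0853 FPKM in sham mice and 0.306 to 0.576 FPKM (median 0.369) in AAN mice. The groups did not overlap, and the log2 difference was 1.68 (SE 0.26, adjusted p = 0.000159) and 1.3 after rescaling, where it was called.

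The genes of the BCDX2 and CX3 complexes, which assist strand exchange, did not move together. *Rad51b* was listed at 0 in all 4 sham mice and at 0.0658 to 0.340 FPKM (median 0.262) in the 6 AAN mice, at most 3.86 to 21.1 fragments, so no fold is given. It passed both limits on the log2(FPKM + 0.1) scale, also after rescaling. *Rad51c* was 0.459, 0.424, 0.309 and 0.358 FPKM in sham mice and 0.254 to 0.613 FPKM (median 0.311) in AAN mice. The groups overlapped, with 3 AAN mice below every sham mouse and 1 above every sham mouse. The log2 difference of *Rad51c*, -0.10 (SE 0.25, adjusted p = 0.744), was the lowest of the 48 genes. It was -0.70 after rescaling, -1.33 after quantile normalization, where it was called lower, and 0.19 with the same FPKM total in each mouse. *Xrcc2* lay at 0.23 and *Xrcc3* at 0.64, and neither was called.

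The MRE11-RAD50-NBN complex, which senses and trims broken ends, was uneven as well. *Rad50* was 1.43, 0.890, 1.09 and 1.05 FPKM in sham mice and 3.02 to 3.99 FPKM (median 3.47) in AAN mice, a log2 difference of 1.57 (SE 0.16, adjusted p = 7.8e-06). It was the only member still called with a pseudocount of 1, at 1.09. With that pseudocount 2909 of all 17129 genes were called higher. After rescaling *Rad50* lay at 0.85 and below 2-fold. *Nbn* was 5.53, 5.13, 6.27 and 5.64 FPKM in sham mice and 4.90 to 7.06 FPKM (median 6.21) in AAN mice, overlapping, with a log2 difference of 0.11 (SE 0.14, adjusted p = 0.534) and -0.65 after rescaling. *Mre11a*, the nuclease, was called at 1.15.

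In differences between partners within a mouse a scaling factor of that mouse cancels, apart from the pseudocount, which matters for pairs of low genes, and 12 pairs of partners were compared in this way. The pairs were chosen after the values of the genes had been seen, so they are given as descriptions with no test. *Rad50* minus *Nbn* was -2.26 ± 0.25 (SD, n = 4) on the log2 scale in sham mice and -0.79 ± 0.14 (SD, n = 6) in AAN mice, and *Mre11a* minus *Nbn* was -2.53 ± 0.41 and -1.48 ± 0.39. In both pairs every AAN mouse lay above every sham mouse, with shifts of 1.47 and 1.04. *Rad51b* minus *Rad51c* shifted by 1.70, a size that rests on the pseudocount because *Rad51b* was at 0 in sham mice. *Xrcc3* minus *Rad51c* shifted by 0.73 and *Rad50* minus *Mre11a* by 0.42, with overlap between the groups.

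In the other 7 pairs the groups overlapped. The shift was 0.29 for *Ercc1* minus *Ercc4*, -0.15 for *Fancd2* minus *Fanci*, 0.38 for *Xpc* minus *Rad23b*, 0.70 for *Ddb2* minus *Ddb1*, 0.33 for *Xrcc2* minus *Rad51c*, -0.11 for *Rev3l* minus *Mad2l2* and -0.24 for *Brca2* minus *Palb2*. Overlapping groups do not show that partners stayed in proportion.

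**Figure D3:**
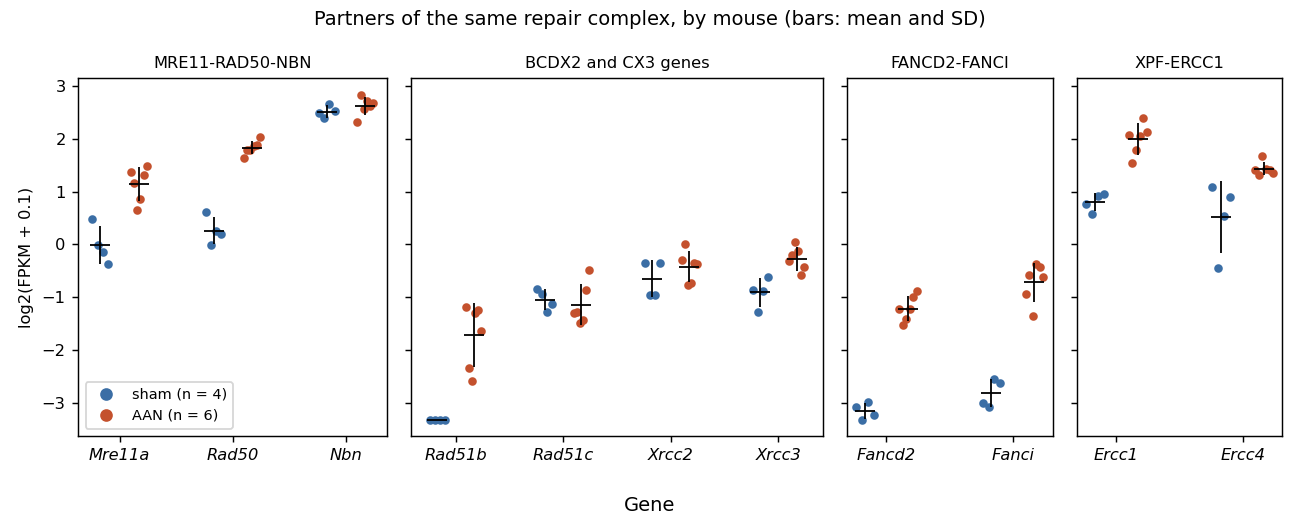
Level of the genes of 4 repair complexes in each mouse, as log2(FPKM + 0.1), with the mean and SD of 4 sham (blue) and 6 AAN (orange) mice. *Mre11a* and *Rad50* are higher in AAN mice while *Nbn* overlaps, *Rad51b* leaves its floor while *Rad51c* overlaps, and *Fancd2* and *Fanci* are both higher.

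*Msh6*, the subunit of the mismatch sensor MutS alpha, was 5.57, 2.42, 2.93 and 3.91 FPKM in sham mice and 6.08 to 8.13 FPKM (median 6.48) in AAN mice, a log2 difference of 0.91 (SE 0.22, adjusted p = 0.00328) with no overlap. *Parp1*, which senses strand breaks, was 6.87, 3.19, 4.09 and 4.80 FPKM in sham mice and 6.33 to 9.76 FPKM (median 7.84) in AAN mice, a log2 difference of 0.78 (SE 0.21, adjusted p = 0.0068) with AAN mouse 3 below sham mouse 1. Neither passed 2-fold, and they lay at 0.16 and 0.03 after rescaling.

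The pathways also differed in their level, and FPKM is per length, so levels can be set beside each other. The median over genes of the sham mean was 2.35 FPKM in NER, 1.16 in translesion synthesis, 0.572 in the Fanconi pathway and 0.137 in HR. In AAN mice the medians were 3.79, 2.21, 1.18 and 0.540 FPKM, in the same order. The sham mean reached 1 FPKM in 15 of 17 NER genes, 3 of 6 translesion genes, 2 of 10 Fanconi genes and 2 of 13 HR genes. NER, with the highest levels, had the fewest calls, and the low genes of the other pathways are those whose log2 difference a pseudocount reduces most.

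Within each mouse, the mean log2 level of the Fanconi genes minus that of the NER genes was -2.67 ± 0.16 (SD, n = 4) in sham mice and -2.05 ± 0.05 (SD, n = 6) in AAN mice. The same difference was -3.05 ± 0.06 and -2.63 ± 0.12 for HR minus NER, and -1.84 ± 0.11 and -1.41 ± 0.18 for translesion synthesis minus NER. In all 3 every AAN mouse lay above every sham mouse, by 0.61, 0.42 and 0.43 on average. With a pseudocount of 1 these shifts were 0.04, -0.14 and 0.10, and with 0.01 they were 1.05, 1.02 and 0.62. The ratio of means needs no pseudocount. Its median was 1.64 in NER, 2.40 in translesion synthesis, 2.57 in the Fanconi pathway and 1.72 over all genes. It was 3.36 over the 12 HR genes that were above 0 in sham mice. The medians of the pathways other than NER include genes that only their AAN values carried past the filter. These were *Rad18*, *Fancd2*, *Fanci*, *Brca2*, *Palb2*, *Rad54l* and *Blm*, with sham means of 0.012 to 0.082 FPKM. Fanconi minus HR shifted by 0.19, with 3 of 6 AAN mice above every sham mouse.

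**Figure D4:**
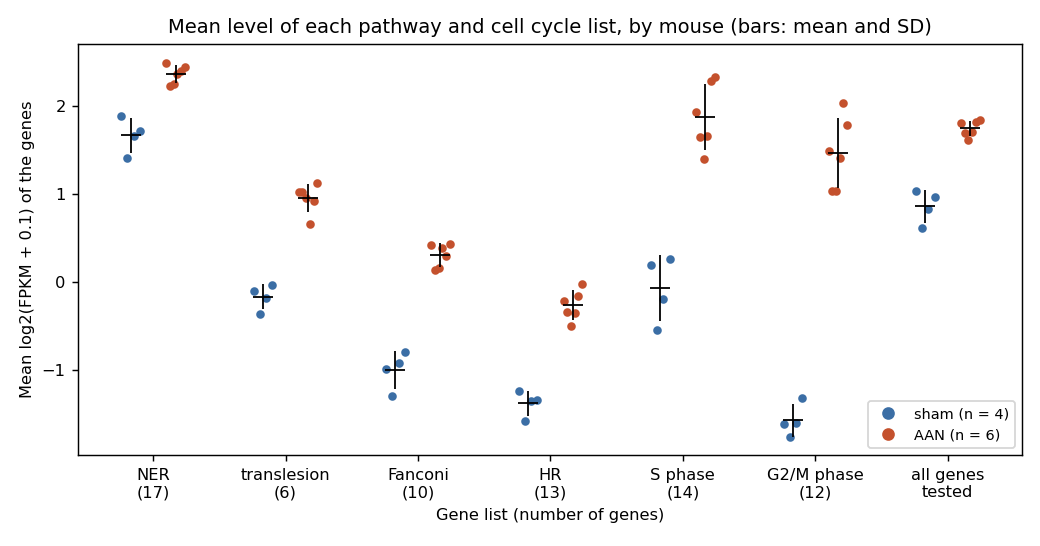
Mean of log2(FPKM + 0.1) over the genes of each repair pathway, of the S phase and G2/M phase lists, and of all genes tested, in each mouse, with the mean and SD of 4 sham (blue) and 6 AAN (orange) mice. Every list is higher in AAN mice, and so is the mean of all genes. The gap is widest for G2/M phase.

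Genes of cell division were also higher in AAN mice. Of 14 S phase genes 13 were called higher, with a median difference of 1.73, and their summed level was 13.6 to 26.0 FPKM in sham mice and 56.5 to 111 FPKM in AAN mice. Of 12 G2/M phase genes all 12 were called, with a median of 3.0 and sums of 3.25 to 4.51 and 31.9 to 67.2 FPKM. After rescaling 8 and 12 were still called. Of all genes, 35.8% were called higher as deposited and 19% after rescaling. No gene of either list was at 0 in all sham mice. *Cdc6*, *Ccne2*, *Ccnb1* and *Cenpf* had sham means of 0.028 to 0.093 FPKM, below the filter limit of 0.1 FPKM, so their AAN values carried them past it. The part of the S phase and G2/M phase genes in the Fanconi, HR and translesion values was not tested.

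Leukocyte markers were higher too, with 11 of 11 tested markers called and summed levels of 13.3 to 24.0 FPKM in sham mice and 250 to 697 FPKM in AAN mice. *Ms4a1*, the remaining marker of the 12, did not pass the filter. The 6 fibroblast markers and the 6 markers of injured tubule were all called, the fibroblast sum being 27.2 to 42.5 FPKM in sham and 108 to 283 FPKM in AAN mice, and the injured tubule sum 146 to 241 and 1416 to 3603 FPKM. Of the 8 proximal tubule markers 6 were called lower. The 4 endothelial markers gave 0 calls, and so did the 4 of the thick limb and the 4 of the distal tubule and collecting duct, while 1 of 4 podocyte markers was called higher. By the same limits 35.8% of all genes were called higher and 3.43% lower. Among the injured tubule markers, *Havcr1* averaged 0.034 FPKM over the sham mice. This is under the filter limit of 0.1 FPKM, so it was tested only because of its AAN values. No marker was at 0 in all sham mice, and the part of these cells in the repair values was not tested.

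Other genes of the same pathways, from lists written with results of these data known, were counted next, against the 35.8% of all genes called higher. Among 14 other NER genes 1 was called, *Rpa2*, a subunit of the protein that coats single-stranded DNA and is shared by all these pathways, at 1.5 (SE 0.24, adjusted p = 0.000202). The lowest was *Gtf2h5*, the smallest TFIIH subunit, at 0.27 (adjusted p = 0.206) and -0.49 after rescaling, with 9.50 to 13.7 FPKM in sham and 9.83 to 17.4 FPKM in AAN mice. Of 8 other translesion genes 5 were called, the highest being *Primpol*, which restarts synthesis beyond a lesion, at 1.71 (SE 0.22, adjusted p = 4.66e-05), and the lowest *Ube2a*, the partner enzyme of RAD18, at 0.35.

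Of 8 other Fanconi genes 2 were called. *Eme1*, a nuclease subunit that works with MUS81, rose from 0 to 0.0533 FPKM in sham mice to 0.402 to 0.977 FPKM in AAN mice, with a log2 difference of 2.70 (SE 0.28, adjusted p = 7.48e-06), while *Fan1*, another nuclease, had the lowest, 0.34 (adjusted p = 0.410). Of 12 other HR genes 8 were called, led by *Bard1*, the partner of BRCA1, at 2.24 (SE 0.30, adjusted p = 5.23e-05), with *Swi5*, an accessory factor of strand exchange, the lowest at 0.28. The medians were 0.71, 1.08, 0.71 and 1.26 for the other NER, translesion, Fanconi and HR genes, against 0.75 for all genes. After rescaling the 4 lists held 0, 1, 2 and 5 genes called higher, against 19% of all genes. Among the called genes, *Eme1*, *Ube2t*, *Bard1*, *Rad51ap1*, *Rad54b*, *Exo1* and *Dmc1* had sham means below the filter limit of 0.1 FPKM. These ran from 0.007 (*Dmc1*) to 0.094 FPKM (*Ube2t*), so AAN values carried these genes past the filter. Such a gene would not have been tested had it stayed at its sham level.

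The promoters of the members were searched for words that cell cycle promoters often hold. RefSeq windows of 250 bases before to 50 after the start (GRCm38.p6) were found for 39 of the 48 genes. The words were TTTCCCGC, TTTCGCGC, TTTGCCGC and TTTGGCGC for E2F, TTTGAA and TTCGAA for the cell cycle homology region (CHR), and CCAAT, on both strands. No word contains another. An E2F word was found in 4 of the 39 member genes (10.3%), *Fancg*, *Brca2*, *Rad51c* and *Msh6*, and in 2.6% of the 27025 genes with a window. It was in 0 of 14 NER genes. A CHR word was in 2.56% of member genes against 21.7% of all genes, and CCAAT in 59% against 41.1%.

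The windows of *Rad54l* (chr4:116123640-116123939, minus strand), *Fanci* (chr7:79392088-79392387, plus strand) and *Rad18* (chr6:112696599-112696898, minus strand) are shown because these genes had the largest difference of their pathway among those with a window. *Fancg* (chr4:43010252-43010551, minus strand) and *Rad51c* (chr11:87404457-87404756, minus strand) were added after the matches were seen, because both hold an E2F word and only the first was called higher. Capitals mark an E2F word or CCAAT.
Rad54l: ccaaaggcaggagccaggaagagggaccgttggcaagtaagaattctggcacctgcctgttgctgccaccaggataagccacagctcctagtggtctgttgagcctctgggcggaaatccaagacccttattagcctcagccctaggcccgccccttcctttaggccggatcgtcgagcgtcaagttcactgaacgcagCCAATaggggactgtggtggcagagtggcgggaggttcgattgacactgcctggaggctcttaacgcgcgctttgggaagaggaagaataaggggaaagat
Fanci: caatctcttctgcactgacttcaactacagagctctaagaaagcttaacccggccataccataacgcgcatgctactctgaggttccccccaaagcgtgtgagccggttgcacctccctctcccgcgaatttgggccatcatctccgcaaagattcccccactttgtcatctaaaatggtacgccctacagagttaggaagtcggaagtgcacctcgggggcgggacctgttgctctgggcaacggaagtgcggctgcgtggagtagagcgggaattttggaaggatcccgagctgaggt
Rad18: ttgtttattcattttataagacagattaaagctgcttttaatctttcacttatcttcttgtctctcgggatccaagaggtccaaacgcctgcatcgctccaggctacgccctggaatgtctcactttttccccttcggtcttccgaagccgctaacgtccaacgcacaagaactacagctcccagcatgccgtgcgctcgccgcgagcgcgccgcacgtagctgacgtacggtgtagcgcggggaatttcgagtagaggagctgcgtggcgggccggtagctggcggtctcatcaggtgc
Fancg: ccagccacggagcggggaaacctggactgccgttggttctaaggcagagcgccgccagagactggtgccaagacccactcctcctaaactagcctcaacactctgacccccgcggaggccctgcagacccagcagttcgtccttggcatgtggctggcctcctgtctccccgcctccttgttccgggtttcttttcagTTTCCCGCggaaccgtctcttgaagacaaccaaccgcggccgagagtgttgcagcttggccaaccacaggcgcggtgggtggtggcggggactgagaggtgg
Rad51c: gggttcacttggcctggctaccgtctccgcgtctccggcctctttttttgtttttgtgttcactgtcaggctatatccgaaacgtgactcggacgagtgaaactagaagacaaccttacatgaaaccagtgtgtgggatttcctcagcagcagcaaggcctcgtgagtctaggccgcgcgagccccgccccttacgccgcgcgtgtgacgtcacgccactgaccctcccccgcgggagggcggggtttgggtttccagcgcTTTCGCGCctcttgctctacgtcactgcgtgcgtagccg
The *Rad54l* window holds CCAAT with its first base 51 bases before the start, and no E2F word. The *Fanci* and *Rad18* windows hold none of the words, although both genes were among those with the largest differences. The *Fancg* window has TTTCCCGC starting 52 bases before the start, and *Fancg* was 0.640, 0.621, 0.561 and 0.717 FPKM in sham mice and 1.45 to 1.96 FPKM (median 1.89) in AAN mice. The *Rad51c* window printed has TTTCGCGC from base 12 after the start, in a gene whose groups overlapped. A word in a window is a match of letters and not a bound site, and *Fancd2*, *Rad50*, *Nbn* and *Ddb2* were among the genes without a window.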

How the data were processed

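RNA from the renal cortex of 4 sham and 6 AAN mice was sequenced, 1 library a mouse. Groups were taken from the sample labels. Per the methods, the authors made TruSeq paired-end libraries, filtered the reads, aligned them with Hisat2 2.0.4 to GRCm38.p4, and quantified known genes as FPKM in Stringtie 1.3.0. The deposited FPKM values were used as they are. Annotation release and strand use were not stated. The study's own test needs counts, so limma was used in its place.

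Symbols, positions and overlaps came from GENCODE M21, which named 21665 of 21792 genes. In R 4.3.3, limma 3.58.1 (lmFit, eBayes with trend and robust) was fitted to log2(FPKM + 0.1). It covered 17129 genes whose mean over all mice reached 0.1 FPKM, with Benjamini-Hochberg adjustment over all of them and two-sided p-values. A call needed an adjusted p of at most 0.05 and at least 2-fold. The fit was tested on simulated data, in which only genes with a sham mean of at least 0.1 FPKM were changed, each by more than 2-fold. That test does not cover genes with lower sham means or smaller changes. Fold changes on this scale understate changes of low genes. Python 3.11.15, pandas 2.3.3 and matplotlib 3.10.9 were used for the rest. Depth came from the FPKM steps of genes with 1 transcript below 0.3 FPKM. Fragments are upper limits from the whole exonic length and cover counting error only.

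The members and lists were chosen with earlier results of these data known. Values in every mouse were given for the 3 members with the highest and the 2 with the lowest difference in each of 4 pathways, and for *Msh6* and *Parp1*. The other members, *Fancg* in every mouse and the partner pairs were added after their values were seen, and from each list of other genes the highest and lowest were named. Of the genes on those lists, 2 are not reported here. Alternatives were a pseudocount of 1 or of 0.01, the filter dropped or raised to 1 FPKM, the median of ratios (each mouse divided by the median over genes of its ratio to the geometric mean), quantile normalization, an equal FPKM total per mouse, limma with neither trend nor robust, no fold limit, mice with B tags alone and each mouse left out. Per the study's methods the controls were littermates and allocation was randomized. No litter is given for a mouse, and the labels name no batch.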

Additional observations from a re-analysis of the deposited data

Results flagged for a closer look

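Among the 95 groups of values examined, 1 for each repair gene in each set of mice that was not constant, 6 held a mouse far from the others by Dixon's test at the 95% level, where chance gives about 1 in 20 (4.75). *Xpc* was 8.62 FPKM in AAN mouse 2 and 3.62 to 5.47 FPKM in the other AAN mice. *Xpa* was 2.37 FPKM in sham mouse 1 and 3.72 to 3.93 FPKM in the other sham mice. Both are mice in which long genes were high against short ones, relative to the mean of their group. *Uvssa* was 1.64 FPKM in sham mouse 3 and 1.17 to 1.25 FPKM in the others, *Ercc4* 3.08 FPKM in AAN mouse 3 and 2.39 to 2.58 FPKM in the others, and *Polk* 4.92 FPKM in AAN mouse 6 and 2.91 to 3.66 FPKM in the others. *Blm* was listed at 0 in sham mouse 2 and at 0.0747 to 0.0853 FPKM in the other sham mice.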

How the results depend on the processing

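The number of repair genes called higher was 21, and 1 with a pseudocount of 1, 9 with the filter raised to 1 FPKM (which tested fewer members), 7 after the median of ratios, 4 (and 1 lower) after quantile normalization, 35 with the same FPKM total and 37 with no fold limit. It was 20 to 26 with each mouse left out, 20 without sham mouse 2 and 26 without sham mouse 1. Without sham mouse 1 and AAN mouse 2, an alternative chosen after seeing the data, it was 26, and 8 when also rescaled. Of all genes, 6126 were called higher and 588 lower. With a pseudocount of 1 the number called higher was 2909, and with the raised filter 4025. After the median of ratios 3261 were higher and 1801 lower, and after quantile normalization 2546 and 1992. With the same FPKM total 8837 of 17129 were higher and 332 lower, and with no fold limit 9482 and 1027. With each mouse left out 5488 to 6684 were higher and 524 to 703 lower. No filter, a pseudocount of 0.01, limma without trend or robust and mice with B tags alone kept all 4 counts within 1.5 times. Apart from fewer genes tested or no fold limit, the cause was not tested.

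After the median of ratios these differences changed sign: *Xpc* -0.11, *Rad23b* -0.50, *Cetn2* -0.40, *Ddb1* -0.0248, *Ercc3* -0.0399, *Gtf2h1* -0.37, *Gtf2h2* -0.49, *Gtf2h3* -0.38, *Gtf2h4* -0.28, *Poli* -0.0859, *Rev1* -0.0558, *Fance* -0.0355, *Xrcc2* -0.42, *Xrcc3* -0.0043 and *Nbn* -0.65. After quantile normalization they were *Xpc* -0.17, *Rad23b* -0.24, *Cetn2* -0.10, *Ercc6* -0.11, *Ercc8* -0.53, *Uvssa* -0.0404, *Xpa* -0.0014, *Ercc2* -0.14, *Gtf2h1* -0.26, *Gtf2h2* -0.67, *Gtf2h3* -0.56, *Gtf2h4* -0.60, *Ercc4* -0.11, *Poli* -0.52, *Rev1* -0.29, *Rev3l* -0.0596, *Fancc* -0.36, *Fance* -0.39, *Fancl* -0.12, *Fancm* -0.26, *Brca2* -0.0165, *Xrcc2* -0.997, *Xrcc3* -0.61 and *Nbn* -0.61. *Rad51c* was 0.19 with the same FPKM total.

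With pseudocounts of 1 and 0.01 the shift within mice was 0.0403 and 1.05 for Fanconi minus NER, -0.14 and 1.02 for HR minus NER, and 0.10 and 0.62 for translesion synthesis minus NER, and it was 0.0333 at 0.01 for Fanconi minus HR. With each mouse left out these shifts were 0.54 to 0.66, 0.38 to 0.44, 0.38 to 0.49 and 0.15 to 0.25. *Fancd2* minus *Fanci* was 0.68 at a pseudocount of 0.01, and *Rev3l* minus *Mad2l2* was -0.27 to 0.0714 with each mouse left out, highest without sham mouse 1, and 0.0014 without AAN mouse 5.

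Values are FPKM and not counts, so the count-based alternatives were not run, and no count model weighs the few sham fragments of *Rad54l*, *Fanci*, *Fancd2*, *Rad51b*, *Rad18* and *Blm*. No paired analysis was possible because the groups share no replicate numbers in the labels.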
